A study of Mus musculus with 6 samples.

Results

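The genes described here encode enzymes and a carrier by which hepatocytes burn fatty acids and make ketone bodies: Cpt1a, Slc25a20, Cpt2, Acadl, Acadm, Hadha, Ehhadh and Bdh1. They were taken by gene symbol, with no threshold on their values, but were chosen with earlier results of these data known. All 8 were found among the 18444 genes listed in at least 1 of the 6 mouse liver libraries. All 8 had at least 3110 counts in every library, so none was lost to a filter on low values.

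Long-chain fatty acids enter mitochondria as carnitine esters. Cpt1a makes the ester at the outer membrane and is the regulated entry step in liver, the carrier Slc25a20 moves it across the inner membrane, and Cpt2 returns the fatty acid to coenzyme A. Acyl-CoA dehydrogenases (Acadl for long chains, Acadm for medium chains) and the trifunctional protein, of which Hadha is the alpha subunit, then shorten the chain, and in fasting liver the acetyl-CoA is turned into ketone bodies, of which Bdh1 interconverts acetoacetate and beta-hydroxybutyrate. Ehhadh carries out the hydratase and dehydrogenase steps in peroxisomes, so the mitochondrial name of the set does not cover it; like many of the others it is a classical target of the fatty acid receptor PPARalpha.

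The study asked how JT003, a synthetic peptide agonist of both adiponectin receptors, acts on mouse liver in a fatty liver model and a fibrosis model. All mice were male C57BL/6 by the labels (C57BL/6J in the study's methods), given as 6 to 8 weeks of age, and each condition had 1 RNA-seq library. In the diet model, SD mice ate a standard diet (labelled chow), HFD mice ate a high-fat diet for 16 weeks (labelled NASH, though the study's methods call this diet alone its fatty liver model), and HFD plus JT003 mice ate the same diet and received 500 µg/kg JT003 daily for 4 weeks. In the CCl4 model, corn oil (Oil) or CCl4 in oil, a hepatotoxin, was injected for 6 weeks, and CCl4 plus JT003 mice received 500 µg/kg daily for 3 weeks. The study's methods state that mice were fasted before sacrifice. Whether a library was made from 1 mouse or from a pool was not given in the sources used here.

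The libraries held 19374236 to 20184557 counts and listed 16083 to 16738 genes. With 1 library per condition there was no replicate error, so every test compared libraries, not conditions, and every interval is a 95% Clopper-Pearson interval that covers counting error only. Of 10 hepatocyte markers, 9 were found, none at 0 in any library, with a summed level of 92991 to 109753 CPM (counts scaled to library size). Alb alone took 58229 of the lowest sum, in HFD, and 65030 of the highest, in Oil. Summed markers of other cells were lower: 73.5 to 422 CPM for macrophages, 171 to 355 for stellate cells, 58.8 to 205 for endothelium, 26.3 to 158 for bile duct, 7.58 to 15.3 for neutrophils, 1.53 to 3.36 for lymphocytes and 0.991 at most for adipocytes, whose 2 measured markers were at 0 in both JT003 libraries. Clock genes differed widely between libraries: Dbp, a clock output gene, had 398, 1738, 977, 824, 96 and 1931 counts in the order SD, HFD, HFD plus JT003, Oil, CCl4, CCl4 plus JT003, and Arntl, which encodes BMAL1, had 195, 46, 70, 142, 386 and 34. Their part in the results below was not tested.

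The 250 bases before the transcription start are shown for 3 genes: Ehhadh, the gene with the widest range, Cpt1a, the entry step, and Acadm, a member with little range. The sequences are from RefSeq on build GRCm38.p6, 5′ to 3′ on the strand of the gene, while the deposited counts were made on mm9, so no position was carried over. Ehhadh lies on the minus strand (window chr16:21787835-21788084), Cpt1a on the plus strand (chr19:3323051-3323300) and Acadm on the minus strand (chr3:153944644-153944893). Capitals mark, on either strand, the nuclear receptor half-site AGGTCA, the GC box GGGCGG and the CCAAT box.
Ehhadh: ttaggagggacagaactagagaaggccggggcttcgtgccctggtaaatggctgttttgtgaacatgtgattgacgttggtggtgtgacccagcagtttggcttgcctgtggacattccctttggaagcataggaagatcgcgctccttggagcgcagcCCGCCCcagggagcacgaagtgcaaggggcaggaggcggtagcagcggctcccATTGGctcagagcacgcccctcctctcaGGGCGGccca
Cpt1a: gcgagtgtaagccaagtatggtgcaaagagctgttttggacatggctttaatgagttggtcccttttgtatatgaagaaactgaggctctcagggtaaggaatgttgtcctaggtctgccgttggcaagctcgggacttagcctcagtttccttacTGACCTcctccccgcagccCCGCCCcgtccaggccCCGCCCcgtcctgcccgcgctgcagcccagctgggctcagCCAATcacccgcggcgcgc
Acadm: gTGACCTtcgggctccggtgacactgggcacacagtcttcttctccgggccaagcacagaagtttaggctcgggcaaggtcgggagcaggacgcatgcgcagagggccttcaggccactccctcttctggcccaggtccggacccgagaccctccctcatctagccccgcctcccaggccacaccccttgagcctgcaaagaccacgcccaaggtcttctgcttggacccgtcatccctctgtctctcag
The full direct repeat AGGTCANAGGTCA, which PPARalpha with RXR binds, was in 0 of the 8 members' windows and in 0.0335% of 32851 windows of this length, and with the fourth base of each copy left free (AGGNCANAGGNCA) again in 0 members and in 0.338% of windows. The half-site alone was in the windows of Acadm, 249 bases before the start, and Cpt1a, 94 bases before it, against 14.0% of all windows. The GC box was in 6 of 8 members (32.7% of windows) and CCAAT in 2, Cpt1a and Ehhadh (33.8% of windows). A match is a string of letters, not a bound site, and says nothing of sites outside these windows.

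On the FPKM scale, which corrects for length and so allows genes to be compared, Ehhadh was the most abundant member in SD, at 2632, and in the 3 libraries of the CCl4 model. In HFD, at 113, it stood below Acadm (206) and Cpt1a (143), and in HFD plus JT003 it was at 251 beside 254 for Acadm. The range of Ehhadh over libraries, 23.4-fold, was far above that of any other member. The highest FPKM was in SD for 7 members and in CCl4 for Bdh1, and the lowest was in HFD for 5.

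**Figure D1:**
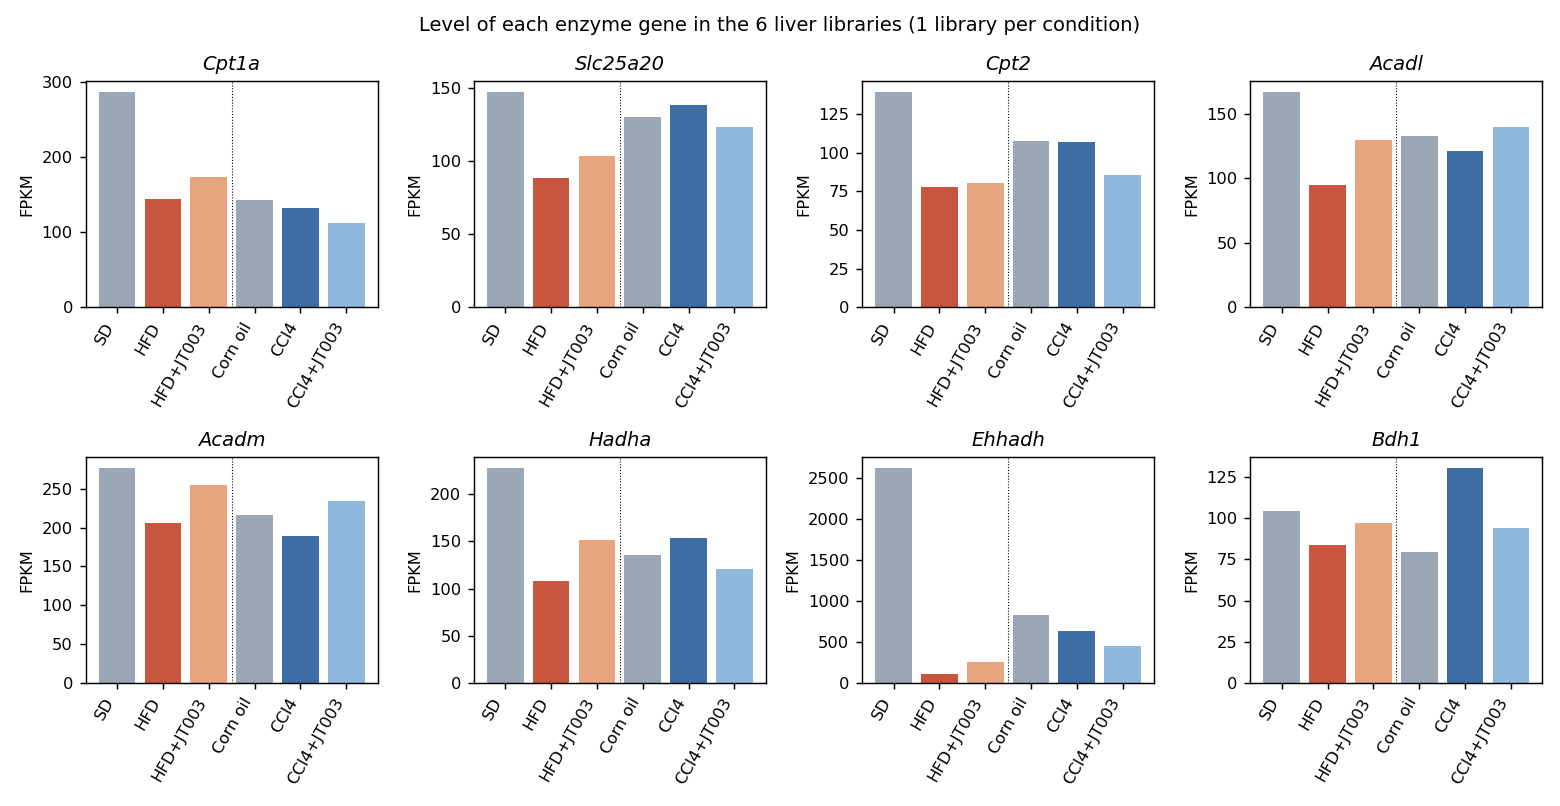
FPKM (y axis, from 0, with its own scale in each panel) of the 8 genes in the 6 libraries, 1 bar per library, with the diet model left and the CCl4 model right of the dotted line and no error bars because each condition has 1 library. SD holds the tallest bar in 7 panels, and Ehhadh goes from 2632 in SD to 113 in HFD.

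HFD was first compared with SD. The 3 genes of the carnitine shuttle were all lower with HFD. Cpt1a had 25383 counts with SD, 12422 with HFD and 15148 once JT003 was added, and in the CCl4 model 12170 with Oil, 11672 with CCl4 and 9547 once JT003 was added. Slc25a20 had 5296, 3110 and 3654 counts in the diet model and 4521, 4956 and 4259 in the CCl4 model. Cpt2 had 6693, 3655 and 3800 and then 4969, 5129 and 3950. SD was thus the highest library for all 3 genes. Changes are given below as log2 ratios of counts scaled by TMM, with a prior count of 2, and a gene is called where a two-sided exact binomial test gave an adjusted p under 0.001 over all genes and the ratio was at least 2-fold. Cpt1a fell by 1.12 on the log2 scale (interval -1.15 to -1.09) in HFD and was called. Slc25a20, at -0.86 (-0.92 to -0.80), and Cpt2, at -0.96 (-1.02 to -0.91), missed the 2-fold threshold and passed at 1.5-fold.

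The dehydrogenases and the trifunctional protein followed the same order of libraries in the diet model. Acadl had 6573 counts with SD, 3662 with HFD and 5019 once JT003 was added, a log2 ratio of HFD over SD of -0.93 (-0.99 to -0.88) that passed at 1.5-fold. Acadm had 11573, 8414 and 10444, a log2 ratio of -0.55 (-0.59 to -0.51) that passed at neither fold. Hadha, with 17882, 8285 and 11697, fell by 1.20 (-1.24 to -1.16) on the log2 scale and was called. Its partner subunit Hadhb, not a member, had 10320, 5783 and 7677 counts and a log2 ratio of -0.93, so that the FPKM of Hadha was 0.924 times that of Hadhb in SD and 0.763 times in HFD.

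Ehhadh had 161285 counts with SD, 6754 with HFD and 15107 once JT003 was added, and 48808, 38856 and 26293 in the same order of the CCl4 model. Its SD library stood far above the other 5. It fell by 4.67 on the log2 scale (-4.70 to -4.63) with HFD, and only 7 of the 16973 genes tested had a lower ratio. It also carried much of the set's abundance: the 8 genes together took 1.196% of all reads in SD and 0.261% in HFD, and without Ehhadh 0.397% and 0.227%. Bdh1, the ketone body enzyme, had 6634, 5196 and 6046 counts in the diet model, a log2 ratio of HFD over SD of -0.44 (-0.50 to -0.39) that passed at neither fold.

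In all, 8 of 8 members lay below 0 in HFD over SD, with a median of -0.95, and 3 were called lower, where 5.38% of all genes tested were called and 2.46% were called lower. At 1.5-fold 6 of the 8 were called, against 11.1% of all genes. The members were chosen with earlier results of these data known, so setting their calls beside these shares is a description. The median over all genes was near 0. Over the 2632 genes with a mean of at least 1000 counts it was -0.13, and 62.7% of them lay below 0. These genes include the members but were not matched to them in abundance. Scaling by total reads moved all HFD over SD ratios up by 0.12, and Cpt1a, at -0.998, was then no longer called. Under an edgeR exact test with an assumed coefficient of variation between animals of 0.2, 1 of the 3 calls, Ehhadh, was left, and at 0.4 none was. Zonal markers moved with this contrast: summed periportal markers were 8291 CPM in SD and 5430 in HFD, with 5 of 6 below 0. Pericentral markers summed to 9631 and 11189, of which Cyp2e1 took 6732 and 8628. Of these 6 markers 5 lay above 0, with Rhbg called higher (1.11) and Oat called lower (-1.18). Stellate cell markers summed to 171 and 309 CPM, with 7 of 8 above 0 and 3 called higher (Col1a1 at 2.23). Of the 9 hepatocyte markers 6 lay below 0, with Cps1 called lower (-1.15). In bulk liver, fewer cells of a type and less RNA per cell cannot be told apart, and the part of these shifts in the members' ratios was not tested.

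**Figure D2:**
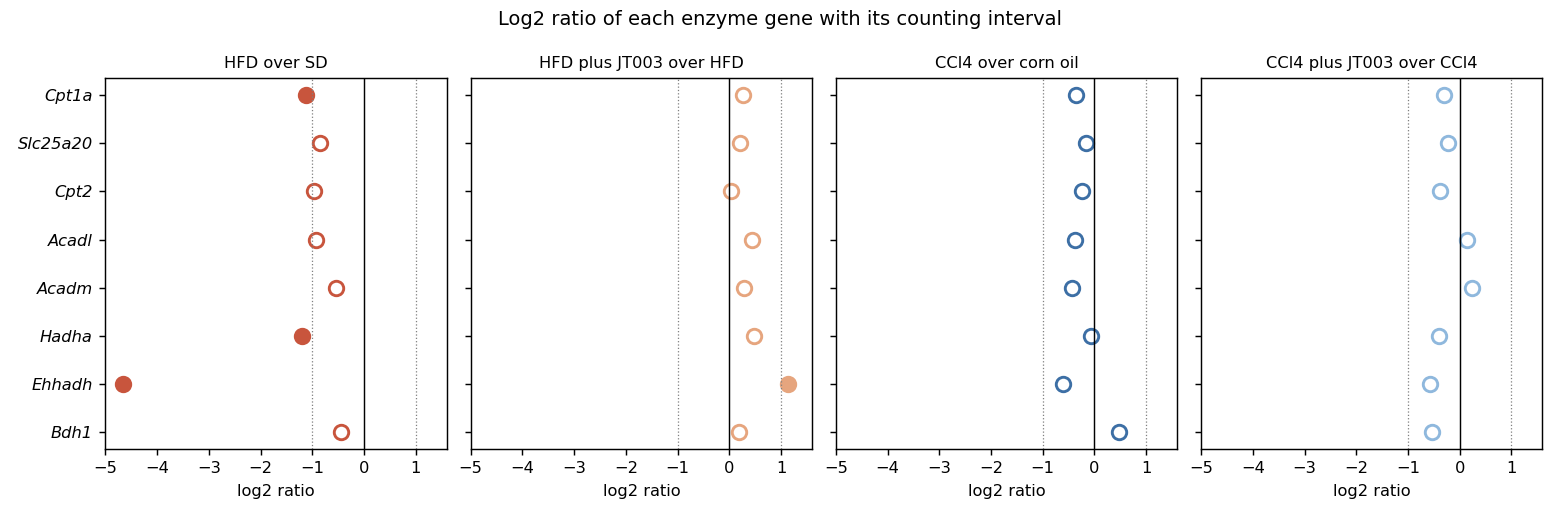
Log2 ratio (x axis) of each of the 8 genes in 4 comparisons, with 95% counting intervals that are mostly narrower than the points, filled points for genes called at 2-fold and open points for the others, and dotted lines at 2-fold. Cpt1a, Hadha and Ehhadh are filled in HFD over SD, Ehhadh alone in HFD plus JT003 over HFD, and no point is filled in the CCl4 model.

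The rest of the route was read from a list of 29 other genes, of which 22 lay below 0 in HFD over SD, with a median of -0.57. Of these, 6 were called lower and 1 higher. The 7 genes of activation and carnitine handling were all below 0 and 4 were called: Acsl1, the main liver acyl-CoA synthetase (-1.33, from 88579 to 37630 counts), Slc22a5, the carnitine transporter (-2.09), Crat, carnitine acetyltransferase (-2.28), and Cpt1b, the muscle form of the entry enzyme (-2.37, from 666 to 136 counts). Of the 9 other spiral genes none was called, and their median was -0.26. Among the 3 auxiliary enzymes of unsaturated fatty acids, Decr1 fell by 1.01 on the log2 scale. In ketone body metabolism, the monocarboxylate transporter Slc16a1 fell by 1.97 on the log2 scale, and Bdh2, a cytosolic dehydrogenase, rose by 1.53 from 68 to 213 counts. The difference between the 4 of 7 called at activation and carnitine steps and the 0 of 9 in the spiral was not tested.

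Since the protein of Ehhadh is peroxisomal, 11 other peroxisomal genes were read beside it. All 11 lay below 0 in HFD over SD, with a median of -1.02, and 6 were called, among them the thiolase Acaa1b (-1.83, from 81183 to 24303 counts), the transporter Abcd3 (-1.02), Crot (-1.18), Acot8 (-1.06) and Pex11a (-1.31). None came near the -4.67 of Ehhadh. Of 9 regulators, 3 were called lower: Pdk4, which restrains pyruvate oxidation (-4.18, from 2207 to 128 counts), the hormone Fgf21 (-3.30, from 691 to 73), and Acacb, whose product inhibits Cpt1 (-2.26). Ppara itself had 10866 counts in SD and 9889 in HFD, a log2 ratio of -0.23.

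**Figure D3:**
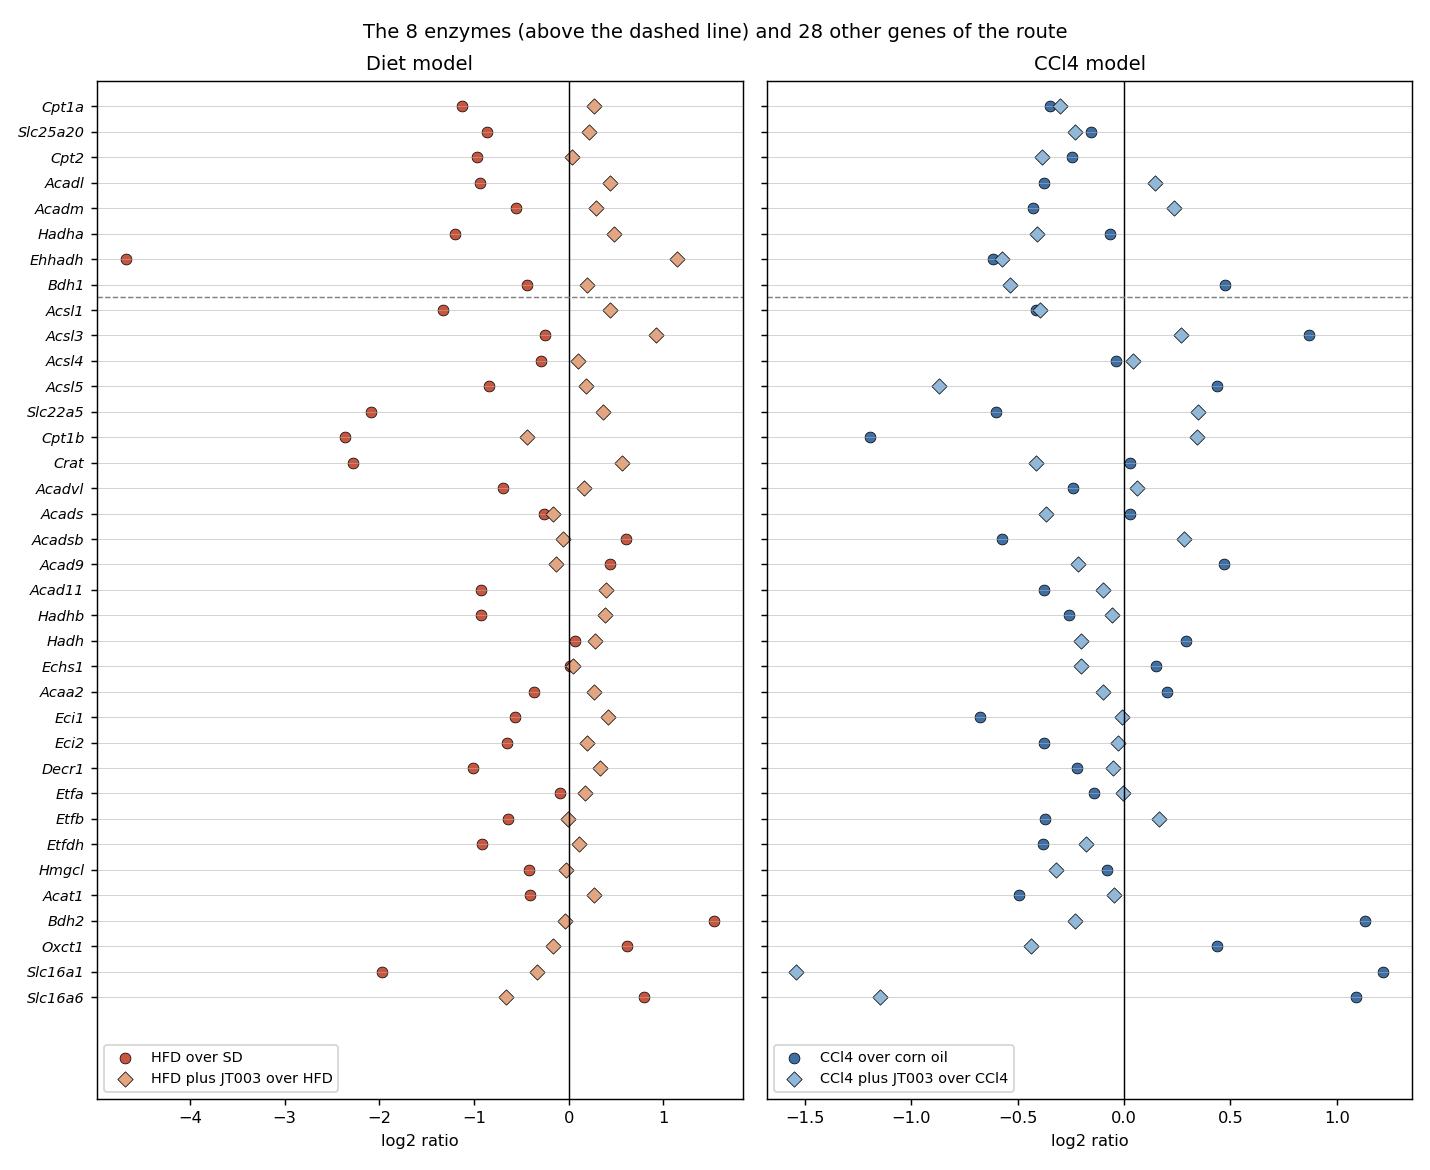
Log2 ratio (x axis, with a different scale in each panel) of the 8 genes, above the dashed line, and 28 other genes of fatty acid oxidation and ketone body metabolism, with circles for the model over its control and diamonds for JT003 over the model. In the diet panel most circles lie left of 0 and most diamonds near or right of it, and in the CCl4 panel the ketone genes Slc16a1 and Slc16a6 lie furthest apart.

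JT003 in HFD mice was then set against HFD alone. Ehhadh rose by 1.14 on the log2 scale (1.10 to 1.18), from 6754 to 15107 counts, and was the only member called, at 2-fold as at 1.5-fold, where 1.63% of all genes were called at 2-fold (0.743% higher) and 4.38% at 1.5-fold. The call was lost with an assumed coefficient of variation of 0.2 or 0.4, where 0 members were called. The other 7 had log2 ratios from 0.03 to 0.47. They were 0.47 (0.43 to 0.52) for Hadha, 0.43 (0.37 to 0.49) for Acadl, 0.29 (0.25 to 0.33) for Acadm, 0.26 (0.23 to 0.30) for Cpt1a, 0.21 (0.14 to 0.28) for Slc25a20, 0.20 (0.14 to 0.25) for Bdh1 and 0.03 (-0.03 to 0.10) for Cpt2. The interval of Cpt2 included 0 and those of the other 7 members did not. Intervals of genes with many counts exclude 0 at small ratios, and the share of all genes that do so was not computed. This count is therefore not a result about the members. The median was 0.28, against 0.01 over genes with a mean of at least 1000 counts, of which 48.3% lay below 0.

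None of the members returned to its SD level. On the log2 scale the library with JT003 regained 52.5% of the HFD difference for Acadm, 46.2% for Acadl, 44.2% for Bdh1, 39.5% for Hadha, 24.4% for Slc25a20 and for Ehhadh, 23.5% for Cpt1a and 3.48% for Cpt2. These shares reuse the HFD library in both ratios, so they are descriptions. Against SD directly, all 8 genes were below 0, with a median of -0.69. Of genes with a mean of at least 1000 counts, 61.1% lay below 0. Ehhadh (-3.53) was called at 2-fold, where 5.93% of genes were, also with the assumed coefficient of variation of 0.2 but not with 0.4. At 1.5-fold 5 members were called, where 13.3% of genes were. Among the 29 other route genes 0 were called with JT003, and 19 lay above 0, with a median of 0.17 and a range from -0.66 for Slc16a6 to 0.92 for Acsl3. Of the regulators, Fgf21 rose by 1.44 on the log2 scale, from 73 to 205 counts. Of the peroxisomal genes 0 were called, and Pex11a (0.70) and Crot (-0.70) were the extremes. Pericentral markers summed to 11189 CPM in HFD and 15478 with JT003, of which Cyp2e1 took 8628 and 12591, with 5 of 6 above 0 and 0 called. Macrophage markers summed to 310 and 422, with 7 of 7 above 0 and 0 called. Stellate cell markers summed to 309 and 234 CPM, with 6 of 8 below 0, a median of -0.83 and 2 called lower (Col1a1 at -1.41), and periportal markers to 5430 and 4801, with 5 of 6 below 0 and Sds called lower (-1.01). The part of any of these classes was not tested.

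In the CCl4 model, CCl4 was compared with corn oil. No member was called at 2-fold, where 7.18% of all genes were, and Ehhadh alone, at -0.62 (-0.64 to -0.60), passed at 1.5-fold, where 13.9% did. Acadl had 5050 counts with Oil, 4760 with CCl4 and 5298 once JT003 was added, and a log2 ratio of -0.37 for CCl4 over Oil. Acadm had 8689, 7898 and 9368 and a ratio of -0.43, and Cpt1a, Cpt2 and Slc25a20 had -0.35, -0.24 and -0.16. Hadha, with 10283, 12009 and 9115, was at -0.06. Bdh1 had 4874, 8280 and 5745 counts and was the 1 member above 0, at 0.48 (0.42 to 0.53). Scaling by total reads moved every CCl4 over Oil ratio up by 0.23, which put Slc25a20 (0.08) and Hadha (0.17) above 0, so the direction of these 2 genes depends on the scaling. The median of the 8 was -0.30, and -0.03 over genes with a mean of at least 1000 counts, of which 53.3% lay below 0.

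Other genes of the route did pass in this contrast. Of the 29, 3 were called higher, Bdh2 (1.13), Slc16a1 (1.22) and Slc16a6 (1.09), all of the ketone body group, and Cpt1b was called lower (-1.19, from 180 to 95 counts). Pdk4 rose by 2.05 on the log2 scale, from 364 to 1849 counts, as did Acaca, acetyl-CoA carboxylase (1.80), while Ppargc1b fell by 1.57. Of the 11 peroxisomal genes 0 were called at 2-fold, but 10 lay below 0, with a median of -0.54. At 1.5-fold 5 were called lower, where 13.9% of all genes were called in either direction. Pericentral markers, which include the CCl4-activating enzyme Cyp2e1, summed to 12152 CPM in Oil and 2622 in CCl4. Cyp2e1 alone took 8825 and 1867 of this. Of these 6 markers 5 were called lower, while Cyp1a2 was at 0.59. Bile duct markers summed to 49.7 and 158, of which Spp1 took 33.9 and 124. All 5 lay above 0 and 4 were called higher. Periportal markers summed to 10944 and 8775, with 5 of 6 below 0 and Sds called lower (-1.05). Macrophage markers summed to 73.5 and 187 CPM, with 7 of 7 above 0, a median of 1.64 and 6 called higher. Stellate cell markers summed to 203 and 355, with 5 of 8 above 0 and 2 called higher (Col1a1 at 3.13). The other 3 stellate cell markers lay below 0, 2 of them past 1.5-fold, with Acta2 the lowest at -0.89. Endothelial markers summed to 104 and 58.8, with 5 of 5 below 0. Of the 9 hepatocyte markers 7 lay below 0, with Cyp2e1 called lower (-2.24). The part of any of these classes was not tested.

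Against CCl4 alone, CCl4 plus JT003 gave log2 ratios below 0 for 6 members and above 0 for 2, with a median of -0.34, and 0 members were called at either fold, where 4.42% of genes were called at 2-fold and 10.6% at 1.5-fold. Ehhadh was at -0.57 (-0.60 to -0.55), Bdh1 at -0.54 (-0.59 to -0.49), Hadha at -0.41 (-0.45 to -0.37), Cpt2 at -0.39 (-0.45 to -0.33), Cpt1a at -0.30 (-0.34 to -0.26) and Slc25a20 at -0.23 (-0.29 to -0.17). The dehydrogenases were above 0, Acadl at 0.14 (0.09 to 0.20) and Acadm at 0.24 (0.19 to 0.28). Over genes with a mean of at least 1000 counts the median was -0.10, and 61.2% of them lay below 0. In the rest of the route, Slc16a1 fell by 1.54 on the log2 scale, from 5330 to 1844 counts, Slc16a6 fell by 1.15, and 22 of the 29 lay below 0. Of the 9 regulators, Fgf21 alone was called, lower at -1.34, from 460 to 182 counts, and 3 lay above 0. Of the 11 peroxisomal genes 0 were called, and Acaa1a (0.50) and Crot (-0.82) were the extremes. Stellate cell markers summed to 355 CPM in CCl4 and 260 with JT003, with 6 of 8 below 0 and 3 called lower (Col1a1 at -1.51). Pericentral markers summed to 2622 and 4208, of which Cyp2e1 took 1867 and 3685. Of these 6 markers 4 lay above 0 and Slc1a2 was called higher, from 6 to 42 counts, while Cyp1a2 was at -0.82. Macrophage markers summed to 187 and 306, with 5 of 7 above 0, Marco alone called (2.93) and Cd68 at -0.60. Of 7 clock genes in phase with Dbp, 6 were called higher. The part of any of these in the members' ratios was not tested. Against Oil, all 8 members were below 0, as were 65.4% of genes with a mean of at least 1000 counts. Ehhadh (-1.19) was called, where 4.95% of genes were, with 3 members called at 1.5-fold, where 9.46% of genes were. Scaling by total reads, which moved these ratios up by 0.30, ended that call, as did an assumed coefficient of variation of 0.2 or 0.4, and put Acadl (0.07), Acadm (0.11) and Bdh1 (0.24) above 0.

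The direction of the JT003 ratio in the CCl4 model depended for 4 members on which counts named CCl4 it was taken against. The authors' comparison table holds a CCl4 column whose total is 2.97 times that of the CCl4 library, so it pools more than that library, and which libraries it sums was not given in the sources used here. Subtracting the CCl4 library leaves a remainder of 1.97 times its total, an inference from the totals, since no gene fell short of the library by over 0.99 counts and 24 fell short at all, and it is taken as CCl4 from the column's name alone. In that remainder all 8 members were below the CCl4 library, from -0.05 for Acadm to -0.62 for Ehhadh, while 69.6% of genes with a mean of at least 1000 counts were below it too, and their median was -0.14. At 2-fold 1.67% of all genes differed between the remainder and the CCl4 library, and at 1.5-fold 4.97%, Ehhadh among them. Scaled to the library's total, the remainder held 26456 counts of Ehhadh, against 38856 in the CCl4 library.

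**Figure D4:**
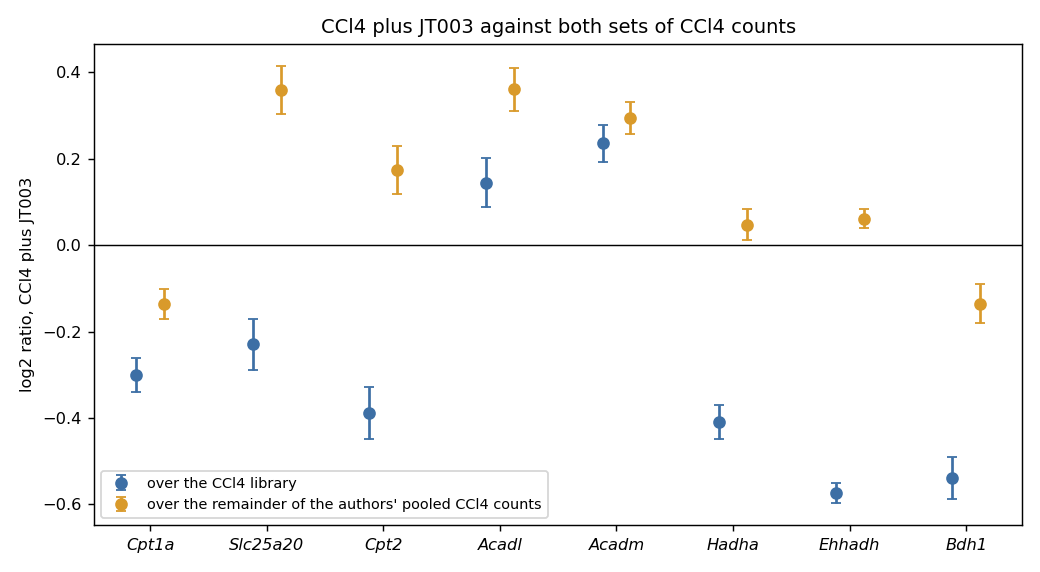
Log2 ratio (y axis) of CCl4 plus JT003 over the CCl4 library (blue) and over what the pooled counts hold beyond that library (gold) for each of the 8 genes, with 95% counting intervals as bars. The gold points lie above the blue ones, and Slc25a20, Cpt2, Hadha and Ehhadh change side of 0.

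Over the remainder, CCl4 plus JT003 was at 0.06 (0.04 to 0.08) for Ehhadh, 0.05 for Hadha, 0.17 for Cpt2 and 0.36 for Slc25a20, all below 0 over the library, and at 0.36 for Acadl and 0.29 for Acadm. Cpt1a and Bdh1, both at -0.14, kept their direction. The median was 0.12, and 6 of 8 were above 0. Over genes with a mean of at least 1000 counts the median was 0.04, and 46.0% of them lay below 0. At 2-fold and at 1.5-fold 0 were called, where 4.64% and 11.1% of genes were. Of the 9 regulators 0 were called at 2-fold over the remainder. Macrophage markers over the remainder had 5 of 7 below 0 and 2 called lower at 2-fold, with Adgre1 the lowest at -1.21. Their part was not tested. Over Oil, the remainder called Ehhadh at -1.26, where 9.75% of genes were called, and 4 members at 1.5-fold, where 17.9% were. The whole pooled column over Oil called 1 member (8.77% of genes, 16.1% at 1.5-fold), and CCl4 plus JT003 over that column called 0 (4.13%, 10.1% at 1.5-fold). A difference of 0.62 on the log2 scale thus stood between the CCl4 library and the remainder for Ehhadh, larger in size than any member's JT003 ratio in the CCl4 model, and counting intervals do not include such differences. No such second set was used for the diet model.

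The controls of the 2 models differed as well. Ehhadh had an FPKM of 2632 in SD and 826 in Oil, a ratio of 3.19, Cpt1a had 287 and 143, a ratio of 2.01, and Hadha 228 and 136, a ratio of 1.68. For the other 5 members SD stood 1.13 to 1.31 times above Oil. Outside the set, Pdk4 was 5.85 times and Fgf21 3.10 times higher in SD than in Oil. These controls differ in injection and in their model's timing (16 weeks of diet for SD, 6 weeks of injections for Oil). The study's methods do not state the diet of the Oil mice. None of these can be told apart from the library.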

How the data were processed

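Liver RNA was sequenced on the BGISEQ-500 platform. Per the labels, HISAT, Bowtie2, RSEM and mm9 were used by the authors, with versions not given in the sources used here, and the deposited files hold RSEM expected counts and FPKM per gene. Reads of near-identical or overlapping genes may be split between them. The authors' pooled CCl4 values were read from a deposited comparison table (expected counts, summed). The fold changes and p-values in the 4 comparison tables, and 7 of their expression columns, were not used.

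Expected counts were rounded to whole numbers and scaled by TMM over the 3 libraries of a model (edgeR). Each pair of libraries was compared by a two-sided exact conditional binomial test per gene with Benjamini-Hochberg adjustment over genes with at least 1 read, and calls required an adjusted p under 0.001 and a 2-fold ratio, with a prior count of 2. This replaces the authors' Poisson-type tests. The procedure was checked on simulated counts. Alternatives were total reads, DESeq2 size factors, TMM over all 6 libraries, a prior count of 0.5, a filter of 10 counts, log2(FPKM + 1), other thresholds, assumed coefficients of variation of 0.2 and 0.4, and the pooled CCl4 counts. The remainder of the pooled counts and the median without Ehhadh were added after the data were seen. Named genes are the members and the fixed route, regulator, peroxisomal and marker lists. Of the listed genes, 2 count in the lists' totals and are not reported here by name. The members and lists were chosen with earlier results of these data known. Python 3.11.15, numpy 2.4.6, pandas 2.3.3 and scipy 1.17.1 were used.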

Additional observations from a re-analysis of the deposited data

Results flagged for a closer look

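Several genes had ratios of opposite sign in the diet and CCl4 models. Each condition had 1 library, and the difference between models was not tested. Bdh1 was at -0.44 on the log2 scale with HFD (over SD) and at 0.48 with CCl4 (over Oil). Over Oil, Bdh1 was only at 0.07 in the remainder of the pooled CCl4 counts and at 0.22 in the whole pooled column. For JT003 over the model, Ehhadh was at 1.14 in HFD and -0.57 in CCl4, Hadha at 0.47 and -0.41, Cpt1a at 0.26 and -0.30, Slc25a20 at 0.21 and -0.23, and Bdh1 at 0.20 and -0.54. Against the remainder of the pooled CCl4 counts, Ehhadh, Hadha and Slc25a20 were above 0 in both models, and Cpt1a and Bdh1 were not.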

How the results depend on the processing

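No paired analysis was possible because each condition has 1 library. Leaving out a library was likewise not possible. Counting intervals leave out the variation between mice, which these data do not measure. Under an exact edgeR test with an assumed coefficient of variation of 0.2, 1 member was called in HFD over SD and 0 in HFD plus JT003 over HFD and in CCl4 plus JT003 over Oil. At 0.4 the calls were 0 in HFD over SD, 0 in HFD plus JT003 over HFD, 0 in HFD plus JT003 over SD and 0 in CCl4 plus JT003 over Oil.

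At a 1.5-fold threshold the calls were 6 in HFD over SD, 1 in CCl4 over Oil, 5 in HFD plus JT003 over SD and 3 in CCl4 plus JT003 over Oil. With no fold threshold they were 8 in HFD over SD, 7 in HFD plus JT003 over HFD and 7 in CCl4 over Oil. They were 8 in CCl4 plus JT003 over CCl4, 8 in HFD plus JT003 over SD and 7 in CCl4 plus JT003 over Oil. The share of all genes called without a fold threshold was not computed. Genes with many counts pass this test at small ratios, so these counts are not a result about the members. Scaling by total reads gave medians of -0.82 in HFD over SD, -0.062 in CCl4 over Oil, -0.28 in CCl4 plus JT003 over CCl4, -0.55 in HFD plus JT003 over SD and -0.13 in CCl4 plus JT003 over Oil, where 0 members were called. The log2(FPKM + 1) values, which are also unscaled by TMM, gave -0.82, -0.057, -0.28, -0.55 and -0.12 in the same order, with 0 in the last. By both, Slc25a20 (0.078 and 0.082) and Hadha (0.17) were above 0 in CCl4 over Oil, and Acadl (0.072 and 0.074), Acadm (0.11) and Bdh1 (0.24) in CCl4 plus JT003 over Oil.

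With the pooled CCl4 counts, the median was -0.49 in CCl4 over Oil, with 1 member called, and -0.080 in CCl4 plus JT003 over CCl4, where Slc25a20 was at 0.14. With the remainder it was -0.56, with 1 called, and 0.12, where Slc25a20 (0.36), Cpt2 (0.17), Hadha (0.047) and Ehhadh (0.061) reversed. Without Ehhadh the median of CCl4 over Oil was -0.24. The cause of these shifts was not tested beyond the scaling itself. Of all values of single members under the alternatives, 15 reversed. The others kept their direction, and 2 of them gained the call and 2 lost it. Another 266 kept their side of the threshold or, for log2(FPKM + 1), which has no test, lay within the counting interval. The last 35, all from log2(FPKM + 1), lay outside that interval. Among these was Cpt1a in HFD over SD, which at -0.99 was below 2-fold.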

Other observations

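Over the 6 libraries, the 5 genes whose level followed the mean standardised level of the members most closely, among 9368 genes ranked, were Hsdl2 (Pearson r = 0.990), Decr1 (0.986), Elovl2 (0.985), Retsat (0.984) and Atat1 (0.983). All points share the same libraries, so these are descriptions. Retsat, retinol saturase, had 46809, 9277 and 18901 counts in SD, HFD and HFD plus JT003, with a log2 ratio of -2.43 between HFD and SD and of 1.00 between the JT003 library and HFD. Elovl2, an elongase of long polyunsaturated fatty acids, had 27211, 7867 and 10106 counts in the same libraries. Between members, r ranged from 0.012 (Acadm with Bdh1) to 0.965 (Slc25a20 with Ehhadh) over 28 pairs, with a median of 0.750.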
